A study of Mus musculus with 12 samples.

Results

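The 10 imprinted fetal growth genes *Igf2*, *H19*, *Dlk1*, *Meg3*, *Cdkn1c*, *Grb10*, *Plagl1*, *Peg3*, *Mest* and *Ndn* were followed in the liver and the lung of newborn mice. They were chosen by symbol, as imprinted genes known for high fetal and falling postnatal expression, with earlier results of these data known. All 10 were found among the 24421 genes listed for each library. The 12 libraries formed 4 groups of 3, which were WT liver, null liver, WT lung and null lung. Null mice were homozygous (*Man1a2* -/-) for the Man1a2tm1.1Ahe allele, which lacks exon 2 of the Golgi mannosidase gene *Man1a2*, and both genotypes came from crosses of heterozygous parents. The deletion is not limited to a cell type, and null animals are known to die of respiratory failure. Newborns were dissected 30 to 60 minutes after birth, and the labels give neither litter nor sex.

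An imprinted gene is read from a single parental copy, because the other copy was silenced by marks laid down in the egg or the sperm. Many imprinted genes act on prenatal growth, with paternally read genes such as *Igf2*, *Dlk1*, *Peg3* and *Mest* tending to raise it and maternally read genes such as *H19*, *Cdkn1c* and, outside the brain, *Grb10* tending to hold it back. In mouse liver and lung, a number of them are switched down together as growth slows after birth, and *Plagl1* encodes a zinc-finger factor that acts on other imprinted genes.

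Several members are neighbours. On the GRCm38 build, *H19* lies on chromosome 7 from 142575529 to 142578143, and *Igf2* lies 72.6 kb away from 142650766 to 142666816, both on the minus strand. *Cdkn1c*, from 143458339 to 143461050 on the same strand, is 880.2 kb from *H19*, in the next imprinted domain. *Dlk1*, on chromosome 12 from 109452823 to 109463336, and *Meg3*, from 109541001 to 109571726, share the plus strand and are 77.7 kb apart. *Peg3* (6703892 to 6730431, minus strand) and *Ndn* (62346569 to 62350262, plus strand) lie far apart on chromosome 7. The others lie alone, with *Plagl1* on chromosome 10 from 13060504 to 13131694, *Grb10* on chromosome 11 from 11930508 to 12038683, and *Mest* on chromosome 6 from 30723547 to 30748465. *H19* and *Meg3* are long noncoding RNAs and the other 8 members encode proteins. *Igf2* overlaps the antisense gene *Igf2os*, and *Mest* overlaps *Copg2* on the opposite strand, so reads of these pairs could have been mixed if counting ignored the strand.

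Promoter windows are shown for the pair of neighbours that differed in the same direction in null liver, *Dlk1* and *Meg3*, and for *Peg3*, the member called lower there. Each window runs from 250 bases before to 50 bases after a RefSeq start on GRCm38.p6, and capitals mark CG dinucleotides, the sites at which DNA is methylated. The windows are chr12:109452573-109452872 (plus strand) for *Dlk1*, chr12:109540746-109541045 (plus strand) for *Meg3* and chr7:6730370-6730669 (minus strand) for *Peg3*.
Dlk1: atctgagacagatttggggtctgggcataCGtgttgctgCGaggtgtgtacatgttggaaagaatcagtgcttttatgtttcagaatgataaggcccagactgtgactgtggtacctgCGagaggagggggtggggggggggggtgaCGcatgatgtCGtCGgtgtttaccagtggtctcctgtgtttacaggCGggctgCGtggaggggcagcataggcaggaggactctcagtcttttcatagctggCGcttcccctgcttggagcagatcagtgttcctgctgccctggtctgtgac
Meg3: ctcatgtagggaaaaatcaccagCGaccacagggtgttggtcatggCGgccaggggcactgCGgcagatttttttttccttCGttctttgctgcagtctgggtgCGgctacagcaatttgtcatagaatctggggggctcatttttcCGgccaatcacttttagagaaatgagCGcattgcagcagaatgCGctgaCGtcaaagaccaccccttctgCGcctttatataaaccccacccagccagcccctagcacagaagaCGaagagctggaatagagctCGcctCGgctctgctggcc
Peg3: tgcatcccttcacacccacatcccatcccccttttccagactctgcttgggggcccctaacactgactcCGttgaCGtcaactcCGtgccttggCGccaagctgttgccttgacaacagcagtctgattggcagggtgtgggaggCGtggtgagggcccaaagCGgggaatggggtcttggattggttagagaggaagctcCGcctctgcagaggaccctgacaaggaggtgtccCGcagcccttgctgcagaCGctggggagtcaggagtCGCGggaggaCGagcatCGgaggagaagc
The *Dlk1* window held 9 CG dinucleotides, and the *Meg3* and *Peg3* windows held 13 each. A second *Meg3* start, whose window (chr12:109545148-109545447) is not shown, had 1, a number reached by 94.6% of all windows. Over all 32851 promoter windows of this length the median was 7, and 45.8% held at least 9 and 37.9% at least 13. RefSeq windows were found for 8 of the 10 members, 15 windows in all, and 12 of these lay above the median, as did 48.6% of all windows. Windows of a gene can overlap, as do those of *Mest* from 30737800 and from 30737803, so they are not independent. The most CG-rich was a *Grb10* window with 45 CG dinucleotides, a number reached by 1.93% of all windows. The motif GGGGCCCC, searched with overlaps allowed and the same on both strands, was found in the *Peg3* window and in none of the other 14, against 1.08% of all windows. Methylation and the parental origin of reads were not measured.

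Libraries held 26759463 to 42914295 counted reads, and 3 reads stood for 0.0538 to 0.126 counts per 1e6 reads (CPM). CPM values of single libraries were scaled by TMM factors, which take most genes to be at equal levels. *Man1a2* was at 54.2 to 87.0 CPM in WT liver, 48.2 to 53.7 in null liver, 75.6 to 107 in WT lung and 42.7 to 50.2 in null lung, and these counts include exons that the null allele keeps. Hepatocyte markers summed to 130400 to 203500 CPM in the 6 livers and to 22.7 to 403.2 CPM in the lungs, with all 6 markers detected in each library. Lung epithelium markers summed to 17370 to 24180 CPM in 5 of 6 lungs and to 16.3 to 76.7 CPM in the livers. In the library labelled null lung 1, the same 6 markers summed to 473.9 CPM, and *Sftpc*, which encodes surfactant protein C, stood at 26.6 CPM against 11910 to 17390 in the other lungs. Of the other markers, *Sftpb* was at 10.9 CPM there, *Nkx2-1* at 17.8, *Ager* at 44.2, *Scgb1a1* at 189.3 and *Hopx* at 185.1. Each of these was above its highest liver value (7.39, 0.702, 7.43, 5.86 and 20.8 CPM). By the marker sum that library therefore went against its lung label, but *Hopx* was not far below the other null lungs (mean 225.7 CPM).

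The library labelled null lung 1 also had far higher sums of muscle, mesenchyme and cartilage markers than the other lungs. Heart muscle markers summed to 15420 CPM (other lungs 235.3 to 583.3), skeletal muscle markers to 8291 CPM (17.0 to 52.1), mesenchyme markers to 11370 CPM (2256 to 2707) and cartilage markers to 362.6 CPM (0.632 to 4.65). Null lungs 2 and 3 were also above all WT lungs for heart muscle (583.3 and 460.7 against 235.3 to 374.9 CPM). The same held for skeletal muscle (52.1 and 40.0 against 17.0 to 23.1 CPM) and cartilage (1.33 and 4.65 against 0.632 to 1.02 CPM). Not every mesenchyme marker was higher. In the library labelled null lung 1, *Tcf21* was at 26.0 CPM and *Pdgfrb* at 76.2 CPM, against 191.2 to 236.5 and 188.9 to 204.8 CPM in WT lung. Correlations of that library with the other lungs, over log2 CPM of all genes tested, were 0.854 to 0.872. Each other lung reached 0.989 to 0.995 with its closest lung. Among livers, the library labelled null liver 1 reached 0.963 with its closest liver, against 0.988 to 0.994 for the others. The library labelled null liver 1 had hepatocyte markers at the level of the other livers (168600 CPM) but carried 6640 CPM of skeletal muscle markers, against 2.36 to 4.55 in the other livers. It also held 536.6 CPM of heart muscle markers (2.16 to 5.41), 622.7 CPM of cartilage markers (0.342 to 0.598) and 2556 CPM of mesenchyme markers (455.3 to 645.5). Most of that heart muscle sum was *Actc1* (397.4 CPM) and *Myh7* (98.1 CPM). *Myh6* was at 5.77 CPM there, against 2939 CPM in the library labelled null lung 1. *Nppa* was at 0.0699 to 0.421 CPM in the null livers, against 5970 CPM in the library labelled null lung 1. Among the mesenchyme markers, *Pdgfrb* was lower in the library labelled null liver 1 (17.8 CPM) than in WT liver (20.8 to 23.1 CPM). *Tcf21* was lower in all null livers (4.23 to 5.72 CPM) than in WT (9.04 to 11.1 CPM). No marker of skeletal muscle, heart muscle, cartilage or mesenchyme was at 0 in either library labelled null 1. Results that rest on these libraries are given with and without them.

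**Figure D1:**
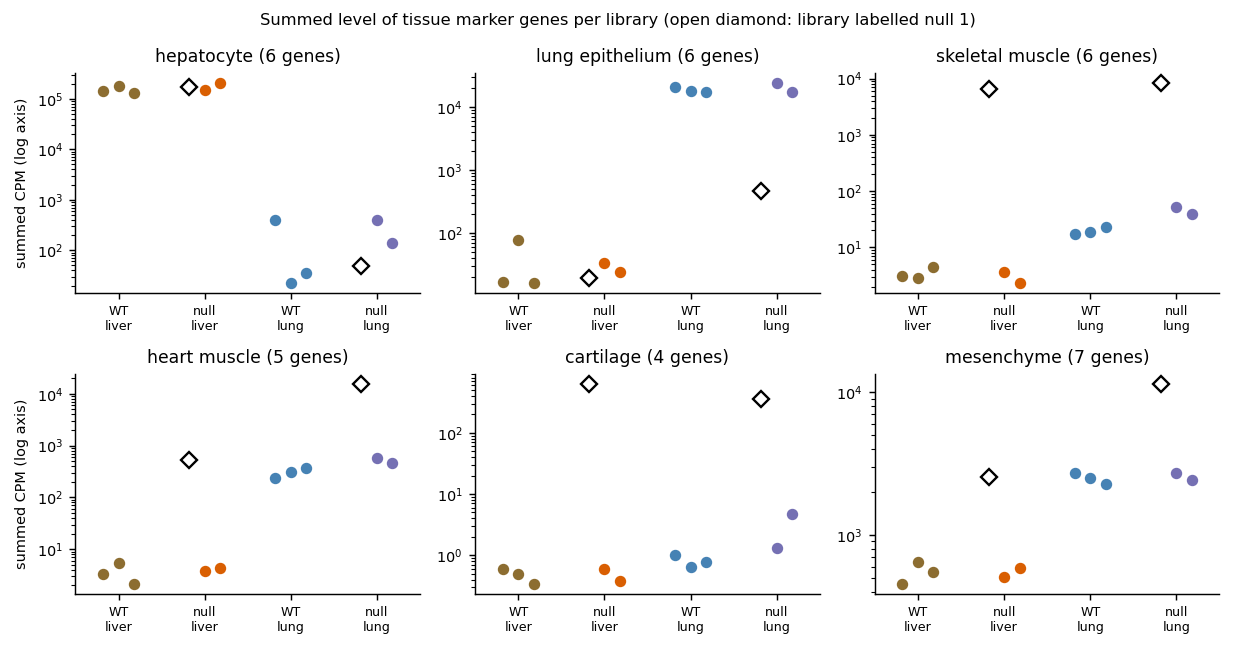
Summed CPM (log axis) of marker genes of 6 cell or tissue types in each of the 12 libraries, by group. Each point is a library, and open diamonds are the libraries labelled null liver 1 and null lung 1, of which the first stands at 6640 CPM of skeletal muscle markers and the second at 473.9 CPM of lung epithelium markers.

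Levels were first ordered per kilobase of exon, since counts of genes of different lengths cannot be compared. In WT liver, *H19* led with 7833 ± 1077 CPM per kilobase (mean ± SD, n = 3) and *Igf2* followed with 1112 ± 75.8, far above the other 8 members. *Mest* (66.4 ± 8.41), *Grb10* (58.6 ± 12.9) and *Cdkn1c* (44.3 ± 5.69) came next, and the library ranges of *Grb10* overlapped with both of the others. *Peg3* (34.2 ± 3.15) and *Dlk1* (31.1 ± 3.07) overlapped, as did *Plagl1* (8.99 ± 2.23) and *Meg3* (8.92 ± 0.176), and *Ndn*, a MAGE-family gene best known from neurons, was lowest at 2.01 ± 0.507. The order was flatter in WT lung. *H19* (178 ± 21.9) was first there too, followed without overlap by *Dlk1* (140 ± 10.8), *Mest* (102 ± 13.5) and *Cdkn1c* (70.1 ± 3.08). *Igf2* was in the fifth place with 57.5 ± 9.54 and overlapped with *Cdkn1c*, and *Ndn* (9.01 ± 1.02) was last again. Order by the longest transcript instead of all exons placed *Grb10* above *Mest* and *Peg3* above *Cdkn1c* in WT liver, and left the order in WT lung as it was.

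The members together took 2.00 to 2.33% of all counted reads in the 6 livers, against 0.408 to 0.439% in the 3 WT lungs. Nearly all of this came from *H19*, with 1.36 to 1.65% of reads in liver, and *Igf2*, with 0.467 to 0.661%. The library labelled null lung 1 stood at 2.085% (95% Clopper-Pearson interval 2.080 to 2.091, which covers counting error only, as do the 3-read floors), as in the livers, while null lungs 2 and 3 stood at 0.463% and 0.533%.

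**Figure D2:**
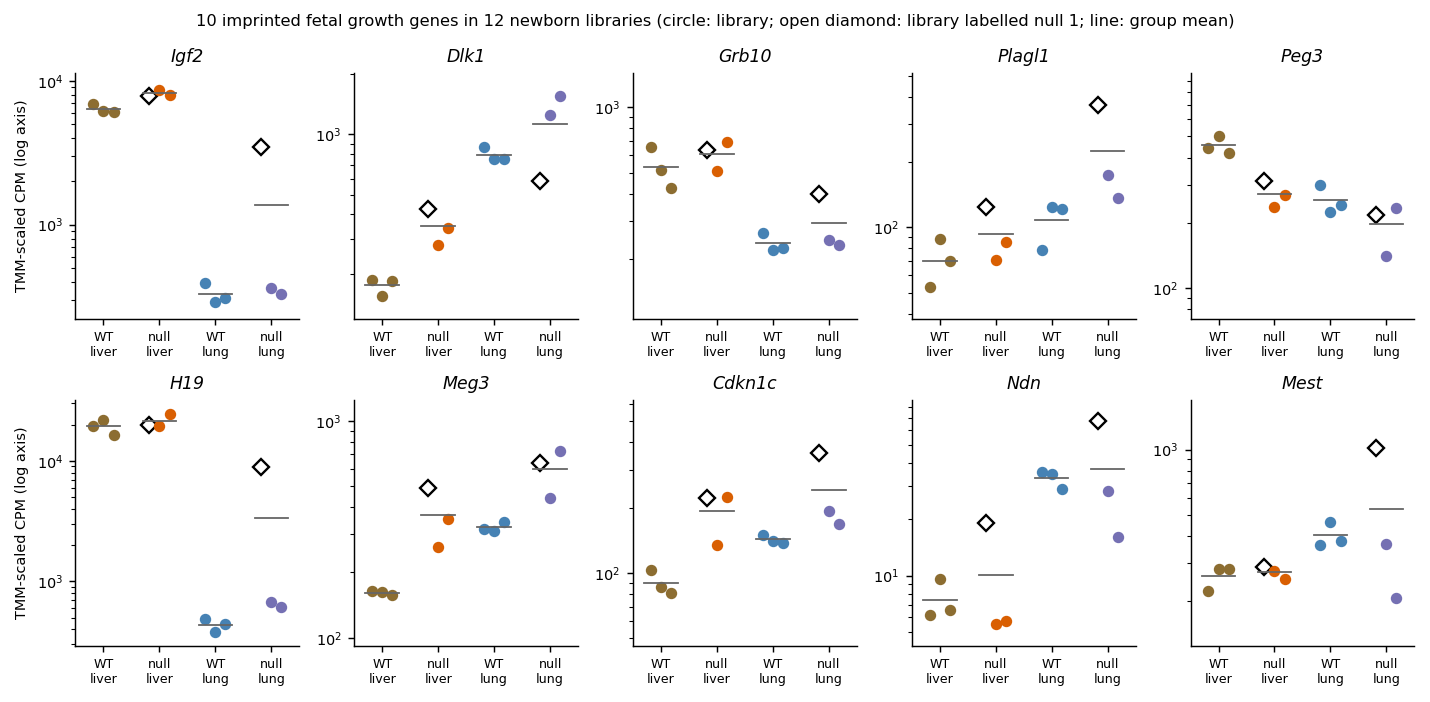
TMM-scaled CPM (log axis, a separate range for each gene) of the 10 members in WT liver, null liver, WT lung and null lung. Each point is a library, lines are group means, and open diamonds are the libraries labelled null liver 1 and null lung 1, which for *H19* in lung is at 8834 CPM against 381 to 673 CPM in the other 5 lungs.

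WT liver was compared with WT lung to place each member in its tissue. All 10 members differed, 4 higher and 6 lower in liver, on a background in which 77.0% of the 15635 genes tested were called. A call needed an adjusted p under 0.05, from the quasi-likelihood test of edgeR with p-values adjusted by Benjamini-Hochberg over all genes tested, together with a 1.2-fold change or more. Sizes are given as log2 fold changes (log2FC) with their SE (standard error). Of the members, *H19* and *Igf2* had the largest differences toward liver, and *Dlk1* and *Meg3* were both lower in liver. Their neighbours did not all follow: *Dio3*, of the same domain as *Dlk1*, had a mean of 0.243 CPM in WT liver and 0.241 CPM in WT lung, and *Rtl1* had 11 to 16 reads in WT livers and 1 to 3 in WT lungs. *Dio3* and *Rtl1* were picked here after their values were seen. In bulk tissue, fewer cells of a type and less RNA per cell cannot be told apart. The scale matters here: with total counts in place of TMM factors, the median gene shifted by -0.79 on the log2 scale, the members split into 2 higher and 6 lower (84.0% of all genes called), and *Grb10* and *Peg3* were no longer called. With all 12 libraries in 1 fit, 7 members were called against 62.7% of all genes, and *Cdkn1c* (adjusted p = 0.0620), *Plagl1* (0.168) and *Mest* (0.244) were not.

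*Igf2* encodes a fetal growth factor that signals through the IGF1 and insulin receptors. It stood at 6856, 6213 and 6031 CPM in WT livers 1, 2 and 3 and at 391, 288 and 308 CPM in WT lungs 1, 2 and 3. The log2FC of liver against lung was 4.29 (SE 0.25, adjusted p = 2.99e-07), and 3.50 with total counts. *H19*, the noncoding RNA that shares enhancers with *Igf2*, stood at 19550, 21760 and 16490 CPM in the livers and at 489, 381 and 441 CPM in the lungs. Its log2FC was 5.47 (SE 0.30, adjusted p = 2.13e-07). The ratio of *H19* to *Igf2* reads was 2.73 to 3.50 in WT liver and 1.25 to 1.43 in WT lung, without overlap, so both genes were higher in liver but by unequal amounts.

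*Dlk1* encodes a Notch-like transmembrane ligand of immature cells, and *Meg3* is the noncoding RNA of its domain. *Dlk1* was at 187, 156 and 185 CPM in the WT livers and at 862, 756 and 757 CPM in the lungs, a log2FC of -2.15 (SE 0.15, adjusted p = 9.05e-07). *Meg3* was at 164, 162 and 158 CPM in the livers and at 317, 310 and 341 CPM in the lungs, which gave -0.99 (SE 0.10, adjusted p = 1.49e-05). Both were lower in every liver than in any lung.

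Of the growth brakes, *Cdkn1c*, which encodes the cyclin-dependent kinase inhibitor p57, was lower in liver, and *Grb10*, an adaptor that inhibits insulin and IGF1 receptor signalling, was higher under TMM scaling. *Cdkn1c* stood at 103, 86.7 and 80.8 CPM in the livers and at 150, 141 and 138 CPM in the lungs (log2FC -0.65, SE 0.11, adjusted p = 4.92e-04). *Grb10* stood at 658, 513 and 427 CPM in the livers and at 264, 220 and 225 CPM in the lungs. Its log2FC of 1.18 (SE 0.18, adjusted p = 2.07e-04) fell to 0.40 with total counts (adjusted p = 0.0548).

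Of the zinc-finger genes, *Plagl1* was at 53.2, 88.1 and 69.7 CPM in the livers and at 78.6, 124 and 121 CPM in the lungs. It was the member whose tissues overlapped, with a log2FC of -0.61 (SE 0.21, adjusted p = 0.0235) that missed the threshold when WT liver 1, WT liver 3, WT lung 2 or WT lung 3 was left out (adjusted p = 0.0756 to 0.105). *Peg3* was at 443, 502 and 421 CPM in the livers and at 300, 225 and 243 CPM in the lungs. Its log2FC of 0.845 (SE 0.146, adjusted p = 5.14e-04) came down to 0.05 with total counts (adjusted p = 0.712). Its size and its call therefore rest on the scaling, and with total counts no difference was shown.

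*Mest*, which encodes a protein of the hydrolase family made in mesoderm, was at 224, 280 and 282 CPM in the livers and at 364, 463 and 381 CPM in the lungs (log2FC -0.61, SE 0.15, adjusted p = 0.00413). *Ndn*, which encodes the growth suppressor necdin, was at 6.16, 9.58 and 6.54 CPM in the livers and at 36.0, 34.8 and 29.0 CPM in the lungs. With a log2FC of -2.16 (SE 0.17, adjusted p = 2.29e-06), its difference was close in size to that of *Dlk1*. Groups did not overlap for 9 of the 10 members, against 81.3% of all genes tested, so the count itself is near the background and the sizes carry the comparison.

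**Figure D3:**
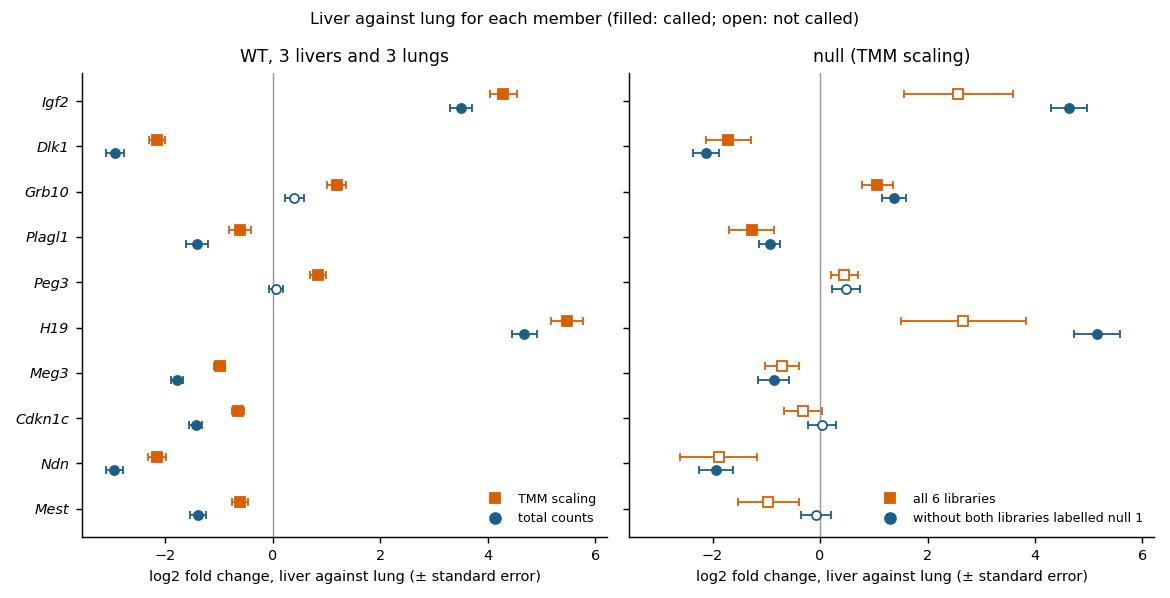
Log2FC of liver against lung (x axis, bars ± SE) for each member, in WT under TMM scaling and total counts, and in null mice with all libraries and without both libraries labelled null 1. Filled symbols were called and open symbols were not, and *H19* and *Igf2* stand at 5.47 and 4.29 in WT under TMM scaling and at 2.66 and 2.58 in null mice when all libraries are used.

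The same comparison in null mice hung on the libraries labelled null 1. With all 6 libraries, *Dlk1* and *Plagl1* were called lower and *Grb10* higher in liver, 3 of 10 members against 45.8% of 15508 genes tested. Without both libraries labelled null 1, 7 of 10 members were called, 3 higher and 4 lower, against 62.5% of genes. *H19* moved from 2.66 (SE 1.16, adjusted p = 0.109) to 5.15 (0.42, adjusted p = 4.38e-05), and *Igf2* from 2.58 (1.01, adjusted p = 0.0812) to 4.64 (0.33, adjusted p = 2.47e-05). *Meg3* (-0.86, adjusted p = 0.0318) and *Ndn* (-1.94, adjusted p = 0.00126) were called without these libraries too. *Cdkn1c*, called lower in WT liver than in WT lung, was at 0.04 (SE 0.26, adjusted p = 0.905) and *Mest* at -0.07 (0.28, adjusted p = 0.834). Leaving out null lung 1 alone gave 5 calls (against 60.7% of genes), *Meg3* and *Ndn* not among them, and leaving out null liver 2, null liver 3 or null lung 2 gave 0, against 28.0%, 30.0% and 34.1% of genes. With the replicate number as a block, since liver and lung of the same number deviated together, 5 members were called (45.7% of all genes), adding *Igf2* (3.56, adjusted p = 0.0428) and *Ndn* (-1.90, adjusted p = 0.00700) to the 3. With total counts, 0 members were higher and 6 lower (61.4% of all genes called), and *Peg3*, at 0.45 under TMM scaling (adjusted p = 0.177), turned to -0.34.

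Null liver was compared with WT liver for the effect of the genotype. *Dlk1*, *Meg3*, *Cdkn1c* and *Igf2* were higher and *Peg3* was lower in null liver, 5 of 10 members called against 26.9% of 14343 genes tested. The rises of *Dlk1*, *Meg3* and *Cdkn1c* were close to 2-fold, while that of *Igf2* was 1.28-fold and near the threshold. *H19*, *Grb10*, *Plagl1*, *Mest* and *Ndn* were not called. Members had a median log2FC of 0.38, against 0.02 over all genes tested. Without the library labelled null liver 1, 4 members were called against 23.8% of 14501 genes, and the median was 0.19.

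*Dlk1* was at 426, 280 and 342 CPM in null livers 1, 2 and 3, all above the WT livers (156 to 187 CPM). The log2FC was 0.98 (SE 0.17, adjusted p = 0.00748), and 0.83 (0.16, adjusted p = 0.00925) without the library labelled null liver 1. *Meg3* was at 492, 262 and 353 CPM in the null livers against 158 to 164 CPM in WT. Its log2FC was 1.19 (SE 0.21, adjusted p = 0.00791), and 0.94 (0.16, adjusted p = 0.00598) without that library. Both genes of the domain were highest in the library that carried muscle, mesenchyme and cartilage markers, and both also rose without it. The part of those tissues in the values of that library was not tested. With all 12 libraries in 1 fit, *Dlk1* missed the threshold (adjusted p = 0.0647).

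*Cdkn1c* was at 222, 135 and 224 CPM in the null livers and at 80.8 to 103 CPM in WT, with no overlap. The log2FC was 1.10 (SE 0.21, adjusted p = 0.0103), and 0.998 (0.215, adjusted p = 0.0147) without the library labelled null liver 1. It was lost when WT liver 3 was left out (1.02, adjusted p = 0.0528). *Grb10*, the other growth brake, was at 636, 508 and 691 CPM in null and at 427 to 658 CPM in WT, with overlapping groups and a log2FC of 0.19 (SE 0.19, adjusted p = 0.483).

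*Igf2* was at 7889, 8695 and 7980 CPM in the null livers and at 6031 to 6856 CPM in WT, so the groups did not overlap. The log2FC was 0.36 (SE 0.11, adjusted p = 0.0481). This call held in 2 of 9 other settings, and it was lost whichever of the 6 livers was left out, with adjusted p from 0.0572 to 0.166. *H19* was at 19670, 19530 and 24490 CPM in null and at 16490 to 21760 CPM in WT, with a log2FC of 0.14 (SE 0.15, adjusted p = 0.512). *Igf2os*, the antisense gene of *Igf2* picked after its values were seen, was at 17.0 to 18.8 CPM in null and 20.2 to 24.6 CPM in WT liver, with a log2FC of -0.30 (adjusted p = 0.106). The *H19* to *Igf2* ratio was 2.25 to 3.07 in null and 2.73 to 3.50 in WT liver.

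*Peg3*, a zinc-finger gene of maternal behaviour and fetal growth, was at 311, 236 and 268 CPM in the null livers and at 421 to 502 CPM in WT. Every null liver was below every WT liver, with a log2FC of -0.75 (SE 0.13, adjusted p = 0.00803) and of -0.84 (0.14, adjusted p = 0.00682) without the library labelled null liver 1. *Plagl1* was at 124, 70.8 and 85.5 CPM in null against 53.2 to 88.1 CPM in WT (log2FC 0.41, SE 0.235, adjusted p = 0.228).

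*Mest* was at 286, 276 and 253 CPM in the null livers and at 224 to 282 CPM in WT. Its log2FC of 0.05 (SE 0.12, adjusted p = 0.786) turned to -0.08 with total counts. *Ndn* was at 19.1 CPM in the library labelled null liver 1 and at 5.49 and 5.72 CPM in the other null livers, with 6.16 to 9.58 CPM in WT. The sign of its log2FC, 0.44 (SE 0.48, adjusted p = 0.523), turned to -0.39 (0.23, adjusted p = 0.254) without that library. Groups did not overlap for 5 members, against 46.6% of all genes tested, and the two-sided exact permutation test gave p = 0.1 for each of these, the smallest p that 3 against 3 allows.

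**Figure D4:**
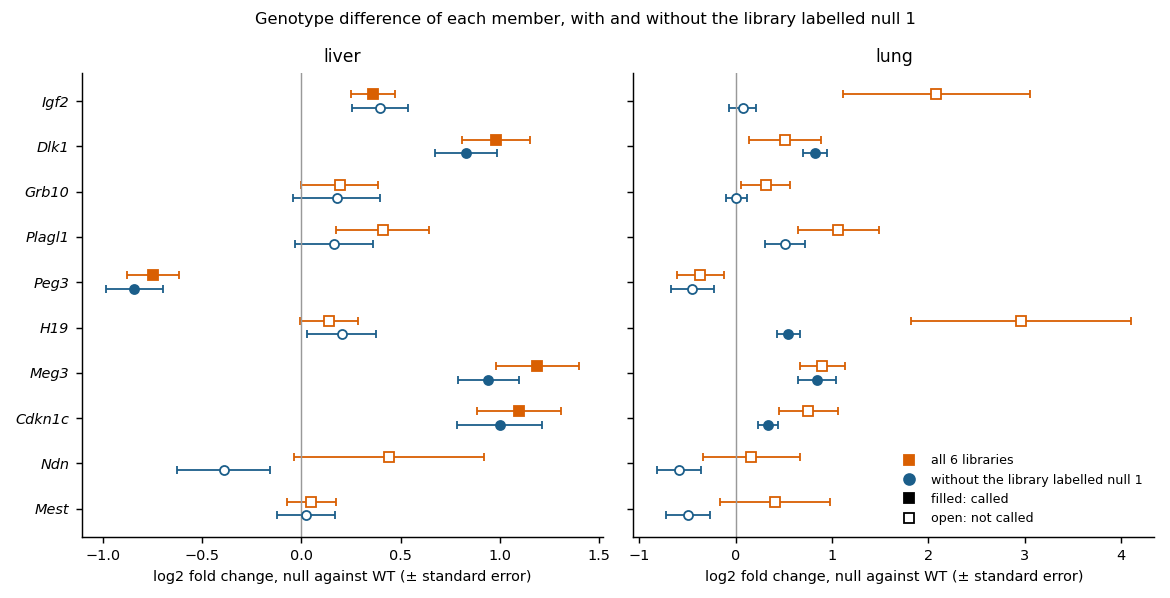
Log2FC of null against WT (x axis, bars ± SE) for each member in liver and lung, with all 6 libraries of the tissue and without the library labelled null 1. Filled symbols were called, and in lung *H19* is at 2.96 with all libraries and at 0.55 without the library labelled null lung 1.

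In lung, none of the 10 members was called with all 6 libraries, against 0.327% of 15591 genes tested by edgeR's quasi-likelihood test. At an unadjusted p under 0.05, 3 members passed (*H19*, *Meg3* and *Plagl1*), as did 25.0% of all genes. DESeq2 called 1 (*Meg3*) and 12.1% of all genes, while giving no adjusted p for *H19* and *Igf2*. Without the library labelled null lung 1, 4 members were called, *H19*, *Dlk1*, *Meg3* and *Cdkn1c*, each higher in null, against 37.0% of 15885 genes tested in either direction and 18.0% higher. The share of 4 of 10 called in either direction is near its background. The common dispersion, a measure of the spread between libraries, was 0.172 with the library and 0.0273 without it, and with it left out the null group holds 2 libraries.

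*H19* was at 8834 CPM in the library labelled null lung 1, at 673 and 610 CPM in null lungs 2 and 3, and at 381 to 489 CPM in WT. The log2FC was 2.96 (SE 1.14, adjusted p = 0.181) with all libraries and 0.55 (0.12, adjusted p = 0.0120) without that library. *Igf2* was at 3445 CPM there, at 364 and 332 CPM in null lungs 2 and 3, and at 288 to 391 CPM in WT. Its log2FC was 2.08 (0.97, adjusted p = 0.242) with all libraries and 0.07 (0.14, adjusted p = 0.709) without. The ratio of *H19* to *Igf2* reads was 2.56 in the library labelled null lung 1, within the range of the livers, and 1.84 and 1.85 in the other null lungs, above the WT lungs (1.25 to 1.43). In that library, hepatocyte markers summed to 47.9 CPM, which is within the range of the other lungs. The sums of muscle, mesenchyme and cartilage markers were far above those of the other lungs. The part of those tissues in the *H19* and *Igf2* values was not tested.

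*Dlk1* ran the other way in that library. It was at 583 CPM there, below the WT lungs (756 to 862 CPM), and at 1252 and 1556 CPM in null lungs 2 and 3, above them. The log2FC was 0.51 (SE 0.37, adjusted p = 0.420) with all libraries and 0.82 (0.13, adjusted p = 0.00309) without it. *Meg3* was at 639, 439 and 724 CPM in null lungs and at 310 to 341 CPM in WT. It moved little with that library, with log2FC values of 0.90 (0.24, adjusted p = 0.103) and 0.85 (0.20, adjusted p = 0.0142), and no null lung overlapped with WT.

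*Cdkn1c* was at 359, 193 and 169 CPM in null lungs and at 138 to 150 CPM in WT, again without overlap. The log2FC was 0.755 (SE 0.311, adjusted p = 0.200) with all libraries and 0.33 (0.10, adjusted p = 0.0344) without the library labelled null lung 1. *Grb10* was at 399 CPM in that library and at 245 and 233 CPM in the other null lungs, with 220 to 264 CPM in WT, and its log2FC went from 0.31 (adjusted p = 0.482) to 0.01 (adjusted p = 0.971). *Plagl1* was at 366, 174 and 136 CPM in null lungs and at 78.6 to 124 CPM in WT. The groups did not overlap, yet the log2FC missed the threshold both with all libraries (1.06, SE 0.42, adjusted p = 0.188) and without null lung 1 (0.51, 0.21, adjusted p = 0.0862).

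*Peg3* was at 218, 141 and 234 CPM in null lungs and at 225 to 300 CPM in WT, with log2FC values of -0.37 (adjusted p = 0.389) and -0.45 (adjusted p = 0.149). *Mest* was at 1015 CPM in the library labelled null lung 1 and at 369 and 208 CPM in the others, against 364 to 463 CPM in WT. *Ndn* was at 66.8 CPM there and at 28.5 and 16.0 CPM in the others, against 29.0 to 36.0 CPM in WT. Both changed sign without that library, *Mest* from 0.40 to -0.49 (adjusted p = 0.125) and *Ndn* from 0.16 to -0.59 (adjusted p = 0.0749), and neither passed in either fit. With all libraries, 4 members did not overlap between WT and null lung, all higher in null, against 16.4% of all genes tested.

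Whether null and WT differed more in a tissue than in the other was tested with an interaction term over all 12 libraries. None of the 10 members passed by edgeR's quasi-likelihood test, against 0.371% of 16155 genes. By that test, 1 member (*H19*) was at an unadjusted p under 0.05, as were 13.9% of genes. DESeq2 called 0 members, against 3.08% of genes, and gave no adjusted p for 1 of the 10. *H19* differed by 2.81 (SE 1.21, adjusted p = 0.340) and *Igf2* by 1.71 (1.04, adjusted p = 0.514) on the log2 scale, lung minus liver. Without both libraries labelled null 1 these were 0.35 (0.36, adjusted p = 0.640) and -0.32 (0.31, adjusted p = 0.608), and 5.18% of 16216 genes were called. The difference for *Dlk1* was then -0.0038 (SE 0.243) and that for *Meg3* -0.09 (0.29), while *Cdkn1c* had the largest among members, -0.66 (0.27, adjusted p = 0.184). The call of a member in a single tissue is therefore not shown to differ between tissues.

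The neighbours of the members were counted next, from a list of imprinted genes of the same domains. Of 30 found in the files, 23 could be tested in liver and 6 were called, 3 higher and 3 lower in null, which is 26.1% against 26.9% of all genes. *Dio3*, *Rian* and *Cobl* were higher and *Ube3a*, *Tssc4* and *Nap1l4* were lower. *Dio3* and *Rian* belong to the domain of *Dlk1* and *Meg3*. *Dio3*, which encodes the deiodinase that inactivates thyroid hormone, was at 1.81, 2.38 and 3.28 CPM in null livers and 0.205 to 0.317 CPM in WT, from 48 to 78 reads against 5 to 9. Its log2FC was 3.32 (SE 0.37, adjusted p = 0.00268), and 3.52 without the library labelled null liver 1. *Rian*, a noncoding RNA that hosts snoRNAs, was at 561, 173 and 270 CPM in null and 95.3 to 143 CPM in WT (1.52, SE 0.39, adjusted p = 0.0276), and at 0.94 (0.22, adjusted p = 0.0193) without that library.

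In lung, 0 of the 26 neighbours tested were called with all libraries by edgeR's quasi-likelihood test (0.327% of all genes). DESeq2 called 3 of 29, which is 10.3% against 12.1% of all genes. Without the library labelled null lung 1, 12 of 26 were called, 5 higher and 7 lower, which is 46.2% against 37.0% of all genes. *Rian* was then 1.04 (SE 0.15, adjusted p = 0.00270) and *Dio3* 1.42 (0.40, adjusted p = 0.0282) higher on the log2 scale in null lung. Further genes of the domains were picked after their values were seen. *Mirg*, another noncoding RNA of the *Dlk1* and *Meg3* domain, was at 19.95, 11.3 and 14.4 CPM in null lungs and at 4.29 to 5.43 CPM in WT (1.45, adjusted p = 0.00187 without null lung 1). *Rtl1*, which is read from the paternal copy like *Dlk1*, had 358 reads in the library labelled null liver 1 and 1213 in the library labelled null lung 1, against at most 16 in any other liver and 18 in any other lung. *Zim1*, next to *Peg3*, was at 26.2 CPM in the library labelled null liver 1, at 7.48 and 9.08 CPM in the other null livers and at 17.5 to 23.5 CPM in WT, and without that library it was called lower in null (-1.28, SE 0.18, adjusted p = 0.00407). In lung it was called lower likewise (-0.62, 0.18, adjusted p = 0.0282), where the library labelled null lung 1 stood at 59.2 CPM.

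A list of 8 genes held receptors of IGF2, adaptors of their signal and the proteins that bind *Igf2* mRNA (*Igf2bp1*, *Igf2bp2* and *Igf2bp3*). In null liver, 2 of 8 were called, both higher, which is 25.0% against 26.9% of all genes. *Igf1r*, the receptor through which IGF2 drives growth, rose by 0.84 on the log2 scale (SE 0.16, adjusted p = 0.00988), from 17.5 to 22.1 CPM in WT to 32.3 to 44.6 CPM in null. *Irs2*, an adaptor of that receptor, rose by 1.35 (0.29, adjusted p = 0.0147). *Irs1*, another adaptor picked after its values were seen, had a mean of 11.8 CPM in null livers 2 and 3. It was at 25.0 CPM in the library labelled null liver 1 and at 22.8 to 33.9 CPM in WT. *Igf2r*, which clears IGF2 and is itself imprinted, was at -0.02 (0.23, adjusted p = 0.964). In lung, 0 of 8 were called with all libraries (0.327% of all genes) and 2 by DESeq2 (12.1%), and *Igf1r* was at 0.70 (0.13, adjusted p = 0.0687). Without the library labelled null lung 1, 4 of 8 were called, all higher, with *Igf1r* at 0.79 (0.09, adjusted p = 0.00114). In that fit 37.0% of all genes were called in either direction and 18.0% higher. In WT, *Igf1r* was lower in liver than in lung by -1.95 on the log2 scale (0.11, adjusted p = 2.16e-07), opposite to *Igf2* in direction.

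Relatives of the members that are not imprinted were compared as a list of 8. In null liver, 4 of the 7 tested were called, all higher, which is 57.1% against 26.9% of all genes. *Plag1*, a relative of *Plagl1* and a known activator of *Igf2*, rose by 1.44 (SE 0.18, adjusted p = 0.00339). *Cdkn1a* and *Cdkn1b*, which encode the kinase inhibitors p21 and p27, rose by 1.33 (0.22, adjusted p = 0.00661) and 0.82 (0.13, adjusted p = 0.00571). The rise of *Cdkn1c* was shared in direction by both of these relatives. Without the library labelled null liver 1, 3 of 7 were called, all higher, against 23.8% of all genes in either direction. In lung, 0 of 8 were called with all libraries (0.327% of all genes) and 2 by DESeq2 (12.1%). Without the library labelled null lung 1, 3 were called, with *Cdkn1a* at 1.81 (0.09, adjusted p = 3.19e-04), *Plag1* at 0.96 (0.17, adjusted p = 0.00507) and *Cdkn1b* at 0.61 (0.13, adjusted p = 0.0111), against 37.0% of all genes.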

How the data were processed

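Poly-A RNA of newborn liver and lung was sequenced with a strand-marking kit. Per the submitters' processing notes, FastQC, STAR 2.5.2a, DESeq2 and the mm10 build were used. The counting program, its annotation and its use of strand are not given in the sources used here. The deposited values are raw read counts per gene for each library, and no file was pooled. The members and all gene lists were chosen with earlier results of these data known.

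Counts were tested with edgeR 4.0.16 (limma 3.58.1, R 4.3.3) by the quasi-likelihood test after filterByExpr and TMM scaling, fitted within the libraries of each comparison and, for the interaction, over all 12. P-values were adjusted by Benjamini-Hochberg over all genes tested. A call needed an adjusted p under 0.05 with a 1.2-fold change or more, and for the interaction the adjusted p alone. Standard errors were the fold change divided by the root of its F statistic. Alternatives were DESeq2 1.42.0, other scalings, other filters, a fit of all 12 libraries, a replicate block and leaving out each library. Total-count scaling and leaving out both libraries labelled null 1 were added after the data were seen. Per the study's methods, RNA came from the liver and lung of 3 newborns of each genotype, so the replicates of a group are separate animals. Same-numbered liver and lung deviated together (r = 0.184 to 0.468, each liver closest to its own number). The labels name no animal, so the main fits between tissues and the main interaction left this pairing out. It entered only the fits with a replicate block. Genes of the lists other than members and markers were named where called, as those with the largest change in each list and direction. Values of a gene named in this way, such as *Igf1r* or *Igf2r*, are also given for comparisons in which it was not called. Other exceptions are marked in the text. Positions and exon lengths were taken from GENCODE M21. 27 gene names had been turned into dates in the files and none is a member. The scripts were tested on simulated data.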

Additional observations from a re-analysis of the deposited data

How the results depend on the processing

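Of the alternative values of member log2 fold changes, 734 kept direction and side of the threshold, 24 gained a call, 42 lost a call and 20 changed sign, and the cause was not tested. In null against WT liver, 5 members were called (26.9% of all genes), 3 with all 12 libraries in 1 fit (11.9%) and 3 to 4 with a library left out (11.3 to 23.8%). In lung, 0 (0.327%) became 1 with DESeq2 (12.1%), 1 with all 12 libraries in 1 fit (14.1%) and 0 to 4 with a library left out, 4 being without null lung 1 (37.0%). For liver against lung in null mice, 3 (45.8%) became 1 with upper-quartile factors (45.5%), 7 with all 12 libraries (60.2%), 5 with the replicate block (45.7%), 6 with total counts (61.4%), 7 without both libraries labelled null 1 (62.5%) and 0 to 5 with a library left out (28.0 to 60.7%).

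Signs changed as follows. For *Mest* in null against WT liver, log2FC was -0.0593 with upper-quartile factors, -0.0772 with total counts and -0.0429 to 0.109 with a library left out, and for *Ndn* it ran from -0.39 to 0.72 with a library left out. In lung, *Ndn* was at -0.0879 with the replicate block and ran from -0.59 to 0.52 with a library left out, and *Mest* from -0.49 to 0.78. Between tissues in null mice, *Peg3* was at -0.34 with total counts, and *Cdkn1c* was at 0.038 without both libraries labelled null 1 and ran from -0.51 to 0.0771 with a library left out. For the tissue difference of the genotype effect, values without both libraries labelled null 1 were -0.32 for *Igf2*, -0.51 for *Mest* and -0.17 for *Grb10*. With a library left out they ran from -0.26 to 2.19 for *Igf2*, from -0.51 to 0.75 for *Mest*, from -0.17 to 0.27 for *Grb10* and from -0.9953 to 0.56 for *Ndn*.

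Null and WT libraries of the same number share only that number (r = -0.0244 to 0.143 in liver and -0.043 to 0.0992 in lung). The block gave 4 calls in liver (23.0% of all genes), without *Igf2* (adjusted p = 0.0802), 0 in lung (0.00%) and 10 between WT tissues (77.7%). Between WT tissues, 7 members were called with all 12 libraries in 1 fit (62.7%), 8 with total counts (84.0%) and 9 to 10 with a library left out (73.5 to 76.0%). Total counts shifted the median gene by -0.13 in liver, -0.12 in lung and -0.78 between null tissues, and upper-quartile factors by -0.11 in liver.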

Other observations

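Imprinted genes of other domains gave 6 calls of 23 tested in null liver, 26.1% against 26.9% of all genes. *Peg13* (0.64), *Trappc9* (0.52), *Sgce* (0.44) and *Gnas* (0.38) were higher and *Blcap* (-0.99) and *Mcts2* (-0.95) lower on the log2 scale, by edgeR's quasi-likelihood test, with *Gnas* picked after its values were seen. With total counts, 3 were called, 0 higher and 3 lower, against 23.4% of all genes in either direction. In lung, 0 of 25 were called with all libraries (0.327% of all genes) and 5 of 28 by DESeq2 (12.1%), and 12 of 26 without the library labelled null lung 1 (37.0%), 9 higher and 3 lower.

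Fetal growth genes that are not imprinted gave 2 calls of 12 in null liver, 16.7% against 26.9% of all genes. *Ezh2*, which encodes a histone methyltransferase, was at 26.2, 25.4 and 14.3 CPM in null livers and 46.5 to 53.4 CPM in WT (log2 fold change -1.20, standard error 0.21, adjusted p = 0.00791). *Trim71*, a known target of let-7, rose by 2.49 (0.55, adjusted p = 0.0166) from 1 to 5 reads in WT to 11 to 22 reads in null. In lung, 0 of 11 were called with all libraries (0.327% of all genes), 2 of 12 by DESeq2 (12.1%) and 3 of 11 without the library labelled null lung 1 (37.0%), among them *Ezh2* (-1.01, adjusted p = 0.00275).

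*Hsd3b1*, a steroid-making enzyme picked after its values were seen, was at 291, 282 and 250.2 CPM in null livers and at 85.8, 118 and 49.0 CPM in WT, without overlap. It is 1 of 5 adrenal cortex markers. The others gave means in WT and null liver of 2.30 and 2.26 CPM (*Star*), 0.506 and 0.339 CPM (*Cyp11a1*) and 0.0114 and 0.0257 CPM (*Nr5a1*), and *Cyp11b1* was at 0 in all 12 libraries.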
